A study of Rattus norvegicus with 6 samples.

Results

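Fos, Jun, Egr1 and Myc encode transcription factors of the early transcriptional response to growth signals. They were followed here in rat vascular smooth muscle cells given a guide RNA meant to raise the long non-coding RNA MIAT. The 4 genes were taken by their Ensembl identifiers from a count table of 32883 identifiers: ENSRNOG00000008015 for Fos, ENSRNOG00000026293 for Jun, ENSRNOG00000019422 for Egr1 and ENSRNOG00000004500 for Myc. The names come with the definition of the group. The deposited tables and the RefSeq gene table used here pair 0 of the identifiers with a symbol, so the names were not checked against an annotation. All 4 genes passed the filter on low counts.

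The 6 samples were of vascular smooth muscle cells, which contract the wall of blood vessels, with vessel given as the tissue. Both groups carried a CRISPR-dCas9 system, in which a Cas9 that cannot cut is led to a locus by a guide. The 3 sg-MIAT samples had the guide meant to raise MIAT from its own gene (genotype label MIAT overexpression), and the 3 sg-U6 samples had a negative control guide (genotype label WT). The labels give no strain, age, passage, serum condition or time of harvest, and do not tell what a sample number stands for (a culture, an animal or a repeat of 1 culture). The spread between samples that the p-values rest on could therefore be technical. The level of Miat and the markers of smooth muscle and other vessel cells were not analysed here, since their identifiers are not paired with names.

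Immediate early genes are induced within minutes of a stimulus without new protein synthesis, and most of their transcripts are short-lived. Fos and Jun proteins pair through leucine zippers to form AP-1, Egr1 is a zinc finger factor, and Myc pairs with Max to act on genes of ribosome production and cell growth. In vascular smooth muscle these genes are known to respond to serum, growth factors and injury of the vessel. Serum response factor binds the CArG box, a short element rich in A and T, in the promoters of several immediate early genes.

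Myc and Egr1 had the higher means in the sg-MIAT samples, Jun differed little and Fos was scarce and variable. Myc averaged 54.1 ± 8.0 CPM in sg-MIAT and 33.7 ± 3.55 CPM in sg-U6 (SD, n = 3 each), where CPM is the count scaled to a library total of 1000000 after TMM scaling. Egr1 averaged 65.0 ± 49.3 CPM in sg-MIAT and 18.8 ± 1.89 CPM in sg-U6 (SD, n = 3 each), and only 2 of the 3 sg-MIAT samples, sg-MIAT 1 and sg-MIAT 2, lay above the control samples. None of the 4 genes passed the test across all 12044 genes (edgeR, quasi-likelihood, Benjamini-Hochberg), in which 0% of genes were called at an adjusted p under 0.05. The RNA came from bulk samples, so more cells expressing a gene and more RNA per cell cannot be told apart.

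Of the 4 genes, 1 matched the RefSeq table of promoters, Egr1, which is also the gene with the largest fitted difference between the groups. Fos, Jun and Myc had no match. The 250 bases before the Egr1 start site are printed because they carry the CArG boxes described above, which are set in capitals. They lie at chr18:26736828-26737077 on the plus strand of build GRCr8, a later build than the Rnor_6.0 named for the deposited files.
Egr1 promoter: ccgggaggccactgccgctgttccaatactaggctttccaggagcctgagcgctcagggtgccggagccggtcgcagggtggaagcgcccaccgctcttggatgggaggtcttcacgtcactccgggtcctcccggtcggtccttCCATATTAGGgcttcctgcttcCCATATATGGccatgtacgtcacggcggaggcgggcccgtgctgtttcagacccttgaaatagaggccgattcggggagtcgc
The window held 2 CArG boxes. The element reads as a CArG box on either strand, so a match has no orientation, and the letters are given as on the plus strand. The first match was CCATATTAGG, at bases 146 to 155 of the window and 105 to 96 bases before the start site, and the second was CCATATATGG, at bases 168 to 177 and 83 to 74 bases before it. A CArG box on either strand was found in 1.5% of the 33469 promoter windows of the same length, and 2 or more in 0.0209%. Another 6 motifs were searched on both strands, each by a single exact spelling, and none of these spellings was in the Egr1 window. Variants that differ by a letter were not searched. The cyclic AMP response element, spelled TGACGTCA, was found in 1.59% of all windows. An AP-1 site, spelled TGACTCA, was in 4.05%, and the E-box of Myc and Max, spelled CACGTG, was in 5.59%. The site of Egr1 itself, GCGGGGGCG, was in 2.45% of all windows. The GC box, spelled GGGCGG, was the most common, in 30.5%, and the TATA box, spelled TATAAA, was in 12.9%. A match or its absence is a description of these letters and does not bear on binding.

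Total counts per library lay between 13128977 and 18257865. On the first principal component of log2 CPM, which held 65.2% of the variance, sg-MIAT 1 (-59.9) and sg-U6 1 (-69.7) stood apart from the other 4 samples (11.1 to 73.9). On the second component, which held 17.4%, sg-MIAT 1 (-31.3) and sg-MIAT 2 (-36.3) lay below sg-MIAT 3 (5.28) and the controls (9.93 to 37.6). The most similar pair of libraries by chi-square over genes was sg-MIAT 3 with sg-U6 2, at 20.8 per degree of freedom, so no pair agreed within sampling noise. Library sg-MIAT 3 was further from its own group, at 101.9 with sg-MIAT 1 and 65.3 with sg-MIAT 2. With the other controls it stood at 68.8 (sg-U6 3) and 142 (sg-U6 1). Several results move with 1 of these libraries, and for some of them the value without it is given.

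**Figure D1:**
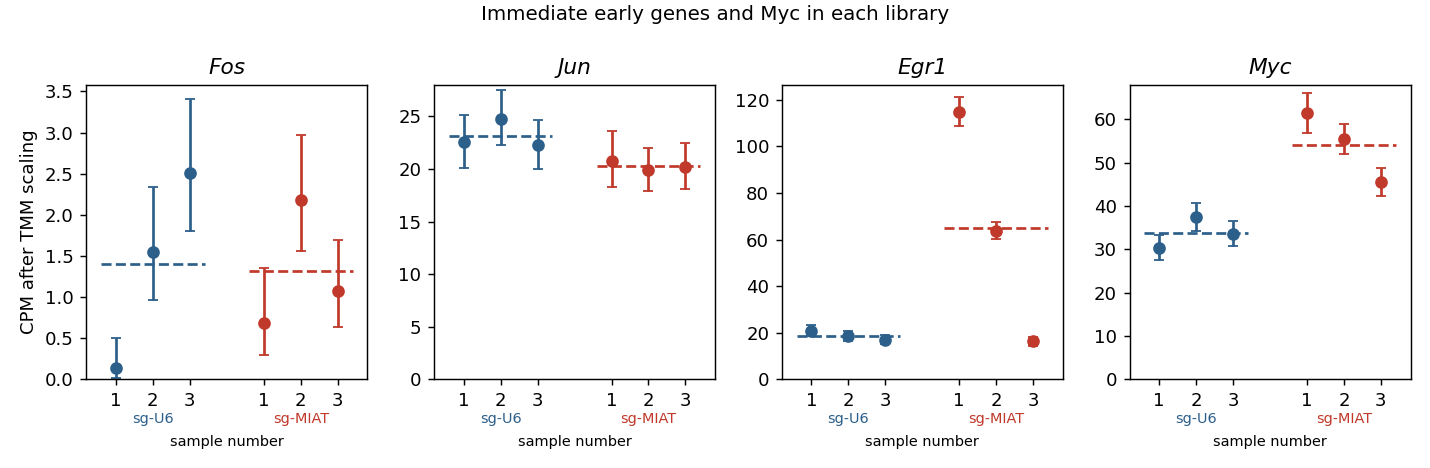
CPM after TMM scaling (vertical axes, each starting at 0) of Fos, Jun, Egr1 and Myc in each of the 3 sg-U6 and 3 sg-MIAT libraries. Points are single libraries, bars are exact Poisson 95% intervals of the count, which cover counting error only, and dashed lines are group means. Egr1 is high in sg-MIAT 1 and sg-MIAT 2 alone, while all 3 sg-MIAT points of Myc lie above the sg-U6 points.

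Fos, the AP-1 subunit that cannot pair with itself, was the scarcest of the 4 in reads. Samples 1, 2 and 3 held 8, 40 and 18 Fos counts with the MIAT guide and 2, 22 and 41 with the control guide. These counts gave 0.684, 2.18 and 1.07 CPM with the MIAT guide and 0.141, 1.55 and 2.51 CPM with the control guide. The range of sg-MIAT thus lay inside the wider range of sg-U6. The lowest library of each group was the one numbered 1, and the highest of all was sg-U6 3, which also lay at the high end of the first principal component (73.9).

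The spread of Fos within the control group rested on sg-U6 1. The ratio of sg-U6 3 to sg-U6 1 was 17.8, with an exact 95% counting interval of 4.64 to 152.3 that is wide because sg-U6 1 held 2 counts. Within sg-MIAT the ratio of sg-MIAT 2 to sg-MIAT 1 was 3.19 (1.47 to 7.88). Without sg-U6 1, the ratio of sg-U6 3 to sg-U6 2 was 1.63, with a counting interval of 0.947 to 2.87 that includes 1. Without sg-U6 3, that of sg-U6 2 to sg-U6 1 was 10.97 (2.70 to 96.3). Among all genes tested, 97.7% spread no more widely than Fos over the 3 controls, and 82.9% did so without sg-U6 1. These ranks were not made among genes of like abundance, and counting error widens the ratio of a scarce gene.

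Set against the guide, Fos showed no direction. Its group means were 1.31 ± 0.777 CPM in sg-MIAT and 1.40 ± 1.19 CPM in sg-U6 (SD, n = 3 each). The log2 fold change of sg-MIAT over sg-U6 was -0.08 ± 0.91 (SE; edgeR adjusted p = 0.9995), with a 95% interval of 0.209- to 4.27-fold. The interval includes changes of several-fold both ways, so a difference was not detectable at this depth and spread. Without sg-U6 1 the edgeR log2 fold change was -0.60, and without sg-U6 3 it was 0.65. Taking same-numbered samples together, the ratio of scaled counts of sg-MIAT to sg-U6 was 4.86 for number 1 (counting interval 0.970 to 46.99). It was 1.41 for number 2 (0.819 to 2.49), whereas for number 3 the control was the higher by 2.34-fold (1.32 to 4.33). From log2 CPM with a prior count of 2, as used for Egr1 and Myc below, the ratios were 3.00 and 1.38 for numbers 1 and 2. For number 3 the control was then the higher by 2.20-fold.

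Jun, the AP-1 subunit that can pair with itself or with Fos, was the steadiest of the 4. Its counts in samples 1, 2 and 3 were 243, 365 and 339 with the MIAT guide and 320, 353 and 363 with the control guide. After scaling, these were 20.8, 19.9 and 20.2 CPM with the MIAT guide and 22.5, 24.8 and 22.2 CPM with the control guide. All 3 sg-MIAT values lay below all 3 sg-U6 values, but by a narrow margin.

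The gap between the highest sg-MIAT library and the lowest sg-U6 library was smaller than the counting error of either. The exact Poisson 95% interval was 18.3 to 23.6 CPM for Jun in sg-MIAT 1 and 20.02 to 24.7 CPM in sg-U6 3. The mean of Jun was 20.3 ± 0.450 CPM in sg-MIAT and 23.2 ± 1.39 CPM in sg-U6 (SD, n = 3 each), a log2 fold change of -0.19 ± 0.15 (SE; edgeR adjusted p = 0.9995). The 95% interval of the fold ran from 0.685 to 1.12, which leaves out any rise or drop of 2-fold. The within-group SD of Jun was 0.06 on the log2 CPM scale, at percentile 1.05 of all genes tested, where the median gene had 0.37. That rank takes in genes of any count, and an SD from 3 libraries per group is itself uncertain. All 3 sg-MIAT values lay inside the counting interval of sg-MIAT 1, and all 3 sg-U6 values inside that of sg-U6 1 (20.1 to 25.1 CPM). The spread was thus within counting error, and the rank does not tell how steady Jun was beyond it. By the ratio of highest to lowest library, 5.22% of genes spread no more widely than Jun over the controls. Without sg-U6 1 that share was 29.4%.

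Egr1, a zinc finger factor that binds GC-rich sites, had the largest fitted difference between the groups of the genes followed here. With the MIAT guide, samples 1, 2 and 3 held 1342, 1172 and 273 Egr1 counts, and with the control guide 296, 263 and 279. Scaled values were 114.8, 63.9 and 16.3 CPM with the MIAT guide against 20.8, 18.5 and 17.1 CPM with the control guide. The 3 control libraries thus sat close together, sg-MIAT 1 and sg-MIAT 2 were several times above them, and sg-MIAT 3 was the lowest of all 6.

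Counting error does not reach across the gap between sg-MIAT 1 and sg-MIAT 2 and the other libraries. The Poisson 95% interval of Egr1 was 1106 to 1241 counts in sg-MIAT 2 and 241.6 to 307.4 counts in sg-MIAT 3. After scaling, the interval of sg-MIAT 3 (14.4 to 18.3 CPM) met that of sg-U6 3 (15.2 to 19.2 CPM). Its place as the lowest library is thus within counting error. The highest sg-MIAT library was 7.05 times the lowest, whereas the same ratio in sg-U6 was 1.22. Among the 12044 genes tested, 353 (2.93%) spread at least as widely as Egr1 within sg-MIAT, 1767 (14.7%) as narrowly within sg-U6, and 6 (0.0498%), Egr1 included, did both. Without sg-MIAT 3 the ratio of the other 2 sg-MIAT libraries was 1.80, which 20.2% of genes reached, and without sg-MIAT 1 it was 3.93. The count of 6 genes ran from 6 to 23 with 1 library left out in turn, 23 without sg-MIAT 3. It was made after the values of Egr1 had been seen and is a description. On the second principal component sg-MIAT 1 (-31.3) and sg-MIAT 2 (-36.3) also stood apart from sg-MIAT 3 (5.28), so the split was not particular to Egr1.

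The fitted log2 fold change of Egr1 was 1.79 ± 0.63 (SE), or 3.45-fold with a 95% interval of 1.20 to 9.90. In edgeR its p was 0.0277 unadjusted, at place 256 of all genes, and 0.9995 adjusted. An exact two-sided permutation test over the 6 samples gave p = 0.4, where 0.1 is the smallest value that 3 against 3 unpaired samples allow. Same-numbered samples differed by 5.48-fold for number 1 and 3.44-fold for number 2, and for number 3 sg-MIAT was at 0.952 of the control.

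The size of the Egr1 difference depended on single sg-MIAT libraries. Without sg-MIAT 1 the fitted difference was 2.12-fold (edgeR adjusted p = 1). Without sg-MIAT 3 it was 4.76-fold, with an adjusted p of 0.268 in edgeR and 1.62e-06 in DESeq2. With all 6 samples DESeq2, which the submitters' processing notes name, gave Egr1 an adjusted p of 0.340, or 0.0651 with the replicate number as a block. The call without sg-MIAT 3 rests on leaving out the library in which Egr1 was not raised, so it is no support for a difference between the guides.

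Myc was the gene whose sg-MIAT samples were all above the controls. Its counts were 717, 1015 and 763 in samples 1, 2 and 3 with the MIAT guide, and 430, 532 and 548 with the control guide. The scaled levels were 61.3, 55.3 and 45.5 CPM with the MIAT guide and 30.3, 37.4 and 33.6 CPM with the control guide. The lowest sg-MIAT library was sg-MIAT 3 and the highest control was sg-U6 2, and their Poisson 95% intervals, 42.3 to 48.8 CPM and 34.3 to 40.7 CPM, did not meet.

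The log2 fold change of Myc was 0.68 ± 0.17 (SE), or 1.6-fold with a 95% interval of 1.20 to 2.14. In edgeR its p was 0.00659 unadjusted, at place 67 of all genes, and 0.9995 adjusted. In the exact two-sided permutation test p was 0.1, the smallest that 3 against 3 unpaired samples allow. The separation of the groups fixes that value, and Jun had the same p of 0.1 in this test. Groups were separate for 9.04% of all genes. DESeq2 gave an adjusted p of 0.207, and 0.204 with the replicate block. Same-numbered samples differed by 2.02-, 1.48- and 1.35-fold for numbers 1, 2 and 3, a shared direction that the separation of the groups fixes. Flipping signs within these 3 pairs gave an exact p of 0.25 for Myc, which is the smallest that 3 pairs allow. The same test gave 0.25 for Jun. The fitted fold of Myc ran from 1.49 without sg-MIAT 1 to 1.73 without sg-MIAT 3 in edgeR, and was 1.53 without sg-U6 1.

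**Figure D2:**
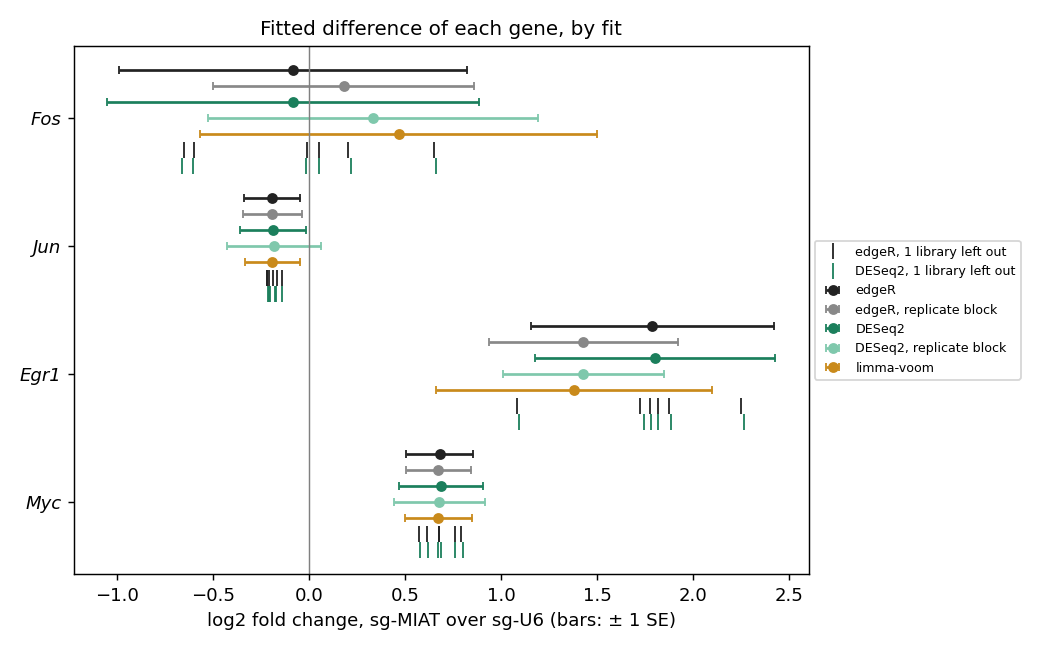
Log2 fold change of sg-MIAT over sg-U6 (horizontal axis) for each of the 4 genes in 5 fits, as points with bars of 1 SE, and with each of the 6 libraries left out in turn, as tick marks. Myc and Egr1 lie above 0 and Jun below 0 in every fit drawn, with Egr1 the most spread among these 3, and the Fos values fall on both sides of 0.

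Taken as a group, 0 of the 4 genes were called at an adjusted p under 0.05 by edgeR, DESeq2 or limma-voom. The shares of all genes called were 0% in edgeR, 0.443% in DESeq2 (1.01% with the replicate block) and 0% in limma-voom. At an unadjusted p under 0.05, edgeR and DESeq2 each had 2 of the 4, Egr1 and Myc, where 3.96% and 3.99% of all genes were at that level. limma-voom had 1 of the 4, Myc, where 3.48% of all genes were. Groups did not overlap for 2 of the 4, Myc higher and Jun lower in sg-MIAT, where the shares of all genes were 4.65% higher, 4.39% lower and 9.04% in all. Of the 4 genes 2 had a positive and 2 a negative log2 fold change. Their median log2 fold change was 0.30 and their median absolute value 0.44, beside -0.03 and 0.19 over all genes tested. With 4 genes these shares and medians describe the genes listed and no wider class.

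**Figure D3:**
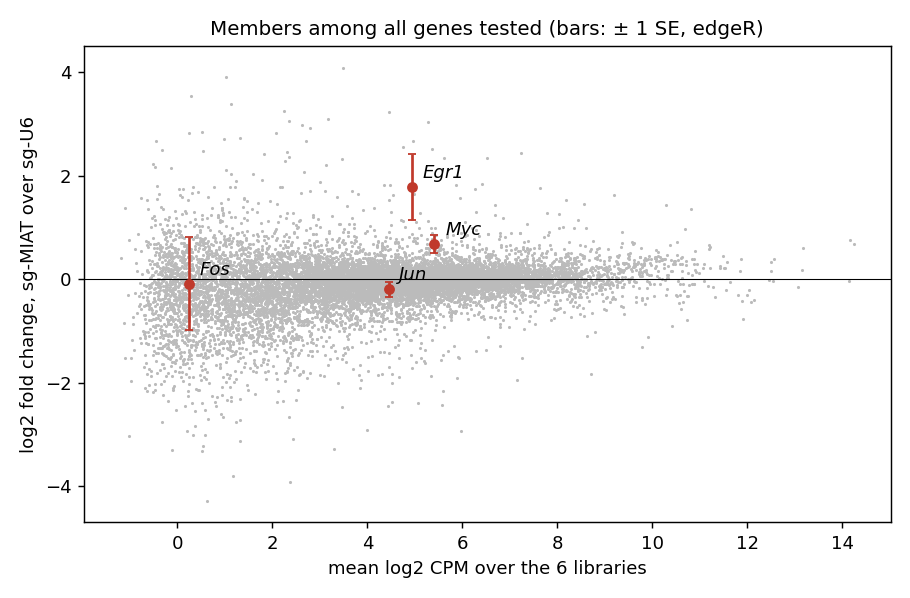
Log2 fold change of sg-MIAT over sg-U6 against mean log2 CPM over the 6 libraries for the 12044 genes tested (grey), with Fos, Jun, Egr1 and Myc in red and bars of 1 SE. Egr1 (1.79) and Myc (0.68) lie above 0, Jun (-0.19) is close to it, and Fos lies among the scarce genes, where fitted differences scatter widely.

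A ratio of 2 genes within a library does not depend on how libraries are scaled, and the 6 ratios among the 4 genes were compared on the log2 scale after adding 0.5 to each count. Gene length enters every library alike, so only the difference between groups is read. The log2 ratio of Jun to Myc in samples 1, 2 and 3 was -1.56, -1.47 and -1.17 with the MIAT guide and -0.43, -0.59 and -0.59 with the control guide. The groups were separate for this ratio, with means of -1.40 ± 0.20 and -0.54 ± 0.10 (SD, n = 3 each), so Myc stood 1.82-fold higher relative to Jun in sg-MIAT. The separation follows from that of the 2 genes, since Jun was lower and Myc higher in every sg-MIAT library, and so did the exact permutation p of 0.1 (0.6 adjusted over the 6 ratios).

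The other 5 ratios overlapped between the groups. The ratio of Jun to Egr1 was -2.46, -1.68 and 0.31 with the MIAT guide against 0.11, 0.42 and 0.38 with the control guide (exact permutation p = 0.2, adjusted p = 0.6). That of Egr1 to Myc was 0.90, 0.21 and -1.48 with the MIAT guide and -0.54, -1.02 and -0.97 with the control guide (exact permutation p = 0.4, adjusted p = 0.75). In sg-MIAT 3, Egr1 was therefore the lowest relative to Myc of any library, while in sg-MIAT 1 and sg-MIAT 2 it was the highest. The 3 ratios with Fos had exact permutation p-values of 0.5 to 0.9 and adjusted values of 0.75 to 0.9. These differences moved with single libraries. For Egr1 to Myc, the mean log2 ratio of sg-MIAT minus that of sg-U6 was 0.72. It was 0.205 without sg-MIAT 1 and 1.40 without sg-MIAT 3. For Fos to Jun the difference was 0.63, and -0.52 without sg-U6 1.

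**Figure D4:**
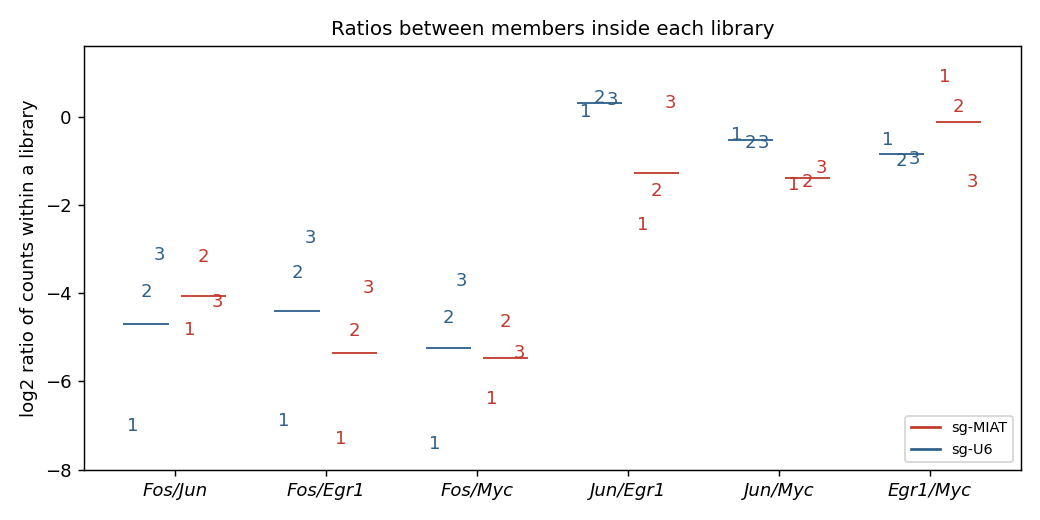
Log2 ratio of counts within a library (vertical axis) for each of the 6 pairs of genes, with the sample number as the plotting mark, sg-U6 in blue and sg-MIAT in red, and lines at group means. The groups are separate for Jun/Myc alone, and sg-MIAT 3 sits apart from sg-MIAT 1 and sg-MIAT 2 in Jun/Egr1 and Egr1/Myc.

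Genes most like each of the 4 in pattern were sought by Pearson's r of log2 CPM over the 6 samples, among 12040 other genes. The likeness includes the difference between groups and any structure the libraries share, and with 6 samples high values are common. With 1 library left out, r rests on fewer samples and 0.9 is reached more easily. A higher count alone therefore does not show dependence on that library. For Fos, 1158 genes had r of at least 0.9 and 1025 had r of -0.9 or lower, and without sg-U6 1 the numbers were 1151 and 1098. With 1 library left out in turn they were at least 1151 and 1098 and at most 1891 and 1631, the highest without sg-MIAT 1. The closest was ENSRNOG00000003187 (r = 0.9991), with 2.74, 5.94 and 3.82 CPM in samples 1, 2 and 3 with the MIAT guide and 1.34, 4.78 and 6.44 CPM with the control guide. Like Fos it was lowest in both libraries numbered 1.

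For Jun, 15 genes reached 0.9 and 29 reached -0.9, against 27 to 146 and 43 to 143 with 1 library left out. Its closest was ENSRNOG00000011907 (r = 0.977), which had 3.76, 3.65 and 3.82 CPM with the MIAT guide and 7.74, 10.8 and 6.62 CPM with the control guide, a wider gap than that of Jun itself. For Egr1 the numbers were 182 and 203, and with 1 library left out they ran from 136 and 188 without sg-MIAT 1 to 695 and 749 without sg-U6 1. Over all 6 samples ENSRNOG00000052038 was closest (r = 0.993). It had 32.3, 27.5 and 17.5 CPM with the MIAT guide and 17.5, 17.3 and 16.4 CPM with the control guide, so it too was high in sg-MIAT 1 and sg-MIAT 2 and at the control level in sg-MIAT 3.

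For Myc the numbers were 189 and 160, but 1153 and 948 without sg-U6 1, close to the numbers for Fos. The other libraries, left out in turn, gave 228 to 334 and 178 to 321. The counts with 1 library left out thus varied with the library, and for Myc they were highest without sg-U6 1. Over all 6 samples, Myc had ENSRNOG00000002164 as its closest gene (r = 0.996), which had 8.73, 6.49 and 3.16 CPM with the MIAT guide and 0.986, 1.90 and 1.59 CPM with the control guide. As for Myc, its lowest sg-MIAT sample was sg-MIAT 3 and its lowest control was sg-U6 1. These identifiers are not paired with names in the tables used here. Other immediate early genes, the Max network and known Myc target genes were listed by symbol and were not analysed here for the same reason.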

How the data were processed

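Polyadenylated RNA of 6 rat smooth muscle samples was sequenced as strand-specific paired ends, per the labels' protocols. HISAT2, DESeq2 and the build Rnor_6.0 are named in the submitters' processing notes, with no version. How reads were counted, with which annotation and whether by strand, is not given in the sources used here. Reads of overlapping or antisense genes could thus be shared. The authors deposited raw counts per gene, 1 column per sample. A second deposited table, of the same counts scaled to library totals, was not used. No column was left unmapped.

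The main test was edgeR 4.0.16 (R 4.3.3): the quasi-likelihood F test with TMM scaling, a filter at edgeR's defaults (minimum count 10, minimum total 15), and Benjamini-Hochberg adjustment over all genes at 0.05. SEs were obtained by dividing the log2 fold change by the root of F, and 95% intervals use the t distribution of the fit. Log2 CPM used a prior count of 2. Alternatives were RLE factors, library totals, no filter, 10 CPM in 3 samples, DESeq2 1.42.0, limma-voom (limma 3.58.1), a block for the replicate number, and leaving out 1 sample at a time. The fits were tested on simulated counts, drawn independently for each library, so the structure that the libraries share was not part of that test. Poisson intervals cover counting error only, since reads carry no molecular identifiers.

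The labels number both groups 1 to 3. Deviations from group means correlated across genes at 0.730, 0.126 and 0.335 for numbers 1, 2 and 3, each above 0.1, so fits with the number as a block are given as alternatives. The labels state no pairing, and crossing numbers 2 and 3 gave higher correlations (0.630 for sg-MIAT 2 with sg-U6 3, 0.337 for sg-MIAT 3 with sg-U6 2; mean 0.566 against 0.397), so the main test and the permutation tests treat the samples as unpaired. Sign flips within pairs and counts of like genes with samples left out were added after seeing the data.

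All 4 genes are named, with the single gene closest in pattern to each. The rule asked for 3 per gene where identifiers are paired with symbols and 1 otherwise. The genes, lists and tests were chosen with earlier results of these data known.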

Additional observations from a re-analysis of the deposited data

How the results depend on the processing

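Jun and Myc kept their direction and Jun, Myc and Fos stayed short of the threshold in all alternatives that gave a value (20 for Jun and for Myc, 19 for Fos, which the filter of 10 CPM in 3 samples removes). Log2 fold changes ran from -0.27 to -0.14 for Jun and 0.57 to 0.80 for Myc. Egr1 stayed positive in 20 alternatives (1.08 to 2.26) and passed in 1, DESeq2 without sg-MIAT 3 (2.26, adjusted p = 1.62e-06). Fos changed sign in 9: its log2 fold change was 0.47 in limma-voom, 0.18 in edgeR and 0.33 in DESeq2 with the replicate block, and from -0.65 to 0.65 in edgeR and -0.66 to 0.66 in DESeq2 with 1 sample left out. It was positive without sg-MIAT 1 (0.20 in edgeR, 0.22 in DESeq2), without sg-MIAT 3 (0.049 in edgeR, 0.053 in DESeq2) and without sg-U6 3 (0.65 in edgeR, 0.66 in DESeq2). The cause was not tested.

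Over all genes, edgeR called 0, with 477 at an unadjusted p under 0.05. DESeq2 called 60, or 130 with the replicate block. With 1 sample left out edgeR called 0 each time and DESeq2 between 13 and 218: 13 when sg-MIAT 1 or sg-U6 2 was omitted, 16 for sg-MIAT 2, 39 for sg-U6 3, 171 for sg-MIAT 3 and 218 for sg-U6 1. The replicate block changed no call of the 4 genes. Fos had at most 41 counts in a library.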
